A study of Mus musculus with 6 samples.

Results

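The 10 genes described here are ligands and receptors of the platelet-derived growth factor (PDGF), transforming growth factor beta (TGF-beta), fibroblast growth factor (FGF) and vascular endothelial growth factor (VEGF) families. They are Pdgfa, Pdgfb, Pdgfra, Pdgfrb, Tgfb1, Tgfb2, Tgfbr2, Tgfbr3, Fgfr1 and Vegfa. Every probe annotated to 1 of these symbols was taken, which gave 16 of the 25697 probes on the array and 10 of its 16593 named genes. RNA was measured in HL-1 cells, an established cardiomyocyte line from mouse atrium that still contracts in culture, grown in Claycomb medium. Some cells were given hyaluronan cut to chains of 6 sugars (o-HA), others were given hyaluronan of 1000 kDa (n-HA), and the rest were left untreated, with 2 arrays in each of the 3 groups. Per the study's methods the exposure lasted a day and the o-HA and n-HA doses differed, so in a comparison of o-HA with n-HA the chain length and the dose cannot be told apart. All groups were the same cell line, and the sources used here do not say whether replicates were separate cultures.

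PDGF ligands are made of A and B chains and bind the receptor tyrosine kinases PDGFR-alpha and PDGFR-beta, which are classically found on mesenchymal cells such as fibroblasts, smooth muscle cells and pericytes. TGF-beta ligands are stored in the matrix in a latent form. Once released they bind the type II receptor TGFBR2, which recruits the type I receptor and passes the signal to SMAD proteins, and the co-receptor TGFBR3 (betaglycan) presents the ligand. FGFR1 is a receptor tyrosine kinase for FGF2 and related ligands, and VEGFA is the main growth factor for endothelial cells, released by cardiomyocytes among other cells. The question asked of these genes was which of them the cardiomyocytes transcribe, and whether either hyaluronan alters their level.

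The arrays differed in brightness. Mean bead intensity was 125.1 and 131.8 on the o-HA arrays, 110.1 and 93.3 on the n-HA arrays, and 140.9 and 121.6 on the untreated arrays, and the number of probes detected on an array lay between 4546 and 5763. n-HA replicate 1 stood apart, with a correlation of 0.817 to 0.873 to each of the others, which correlated among themselves at 0.962 to 0.989 (log2 values). Each group also lay at its own pair of neighbouring places on 1 chip, so chip place and group cannot be told apart. Of 7 cardiomyocyte markers on the array 5 were detected on all 6 arrays, Myl4, Nppa and Actc1 among them, and Ryr2 was detected on 0. Of 7 fibroblast markers 6 were detected on 0 arrays, including Col1a1, Dcn and Col1a2. Of 7 endothelial markers 5 were detected on 0 arrays, including Pecam1 and Cdh5, while Kdr was detected on 1 array and Tek on 5. The smooth muscle genes Acta2 and Tagln were detected on all 6 arrays and the other 4 of that list, Myh11 among them, on 0. Of 4 leukocyte markers on the array 3 were detected on 0 arrays, including Ptprc and Adgre1, and Cd3e was detected on 6.

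Most of these growth factor genes gave no signal above the negative control beads. A probe counts as detected on an array where its detection p-value, set against those beads, is under 0.05. Of the 16 probes 13 (81.2%) were detected on 0 arrays, against 66.4% of all probes, and 3 were detected on all 6 arrays. By gene, 7 of 10 had no detected probe, against 59.7% of the named genes on the array (9906 of 16593). The 78 readings of the 13 undetected probes lay between 49.2 and 69.2 intensity units, while the dimmest detected probe of an array read 70.15 to 73.03. None of the 78 had a detection p-value under 0.05, and the lowest was 0.0902. A reading at background gives an upper limit on the signal of that probe and does not show that the transcript is absent.

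**Figure D1:**
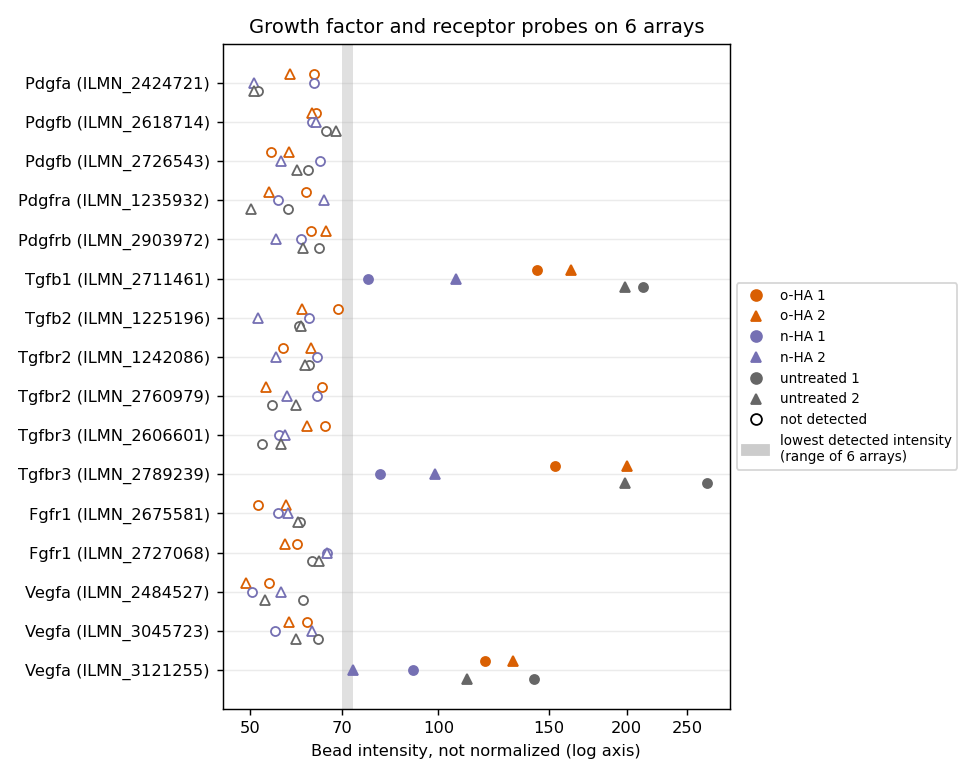
Bead intensity before normalization (log axis) of the 16 probes on the 6 arrays, with o-HA above n-HA above untreated within a probe; filled points were detected and open points were not. The single probes of Tgfb1, Tgfbr3 and Vegfa that were detected lie above the grey band of lowest detected intensities (70.15 to 73.03) or at its upper edge, and all other probes lie below it.

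No PDGF gene among them was detected. Pdgfa, the A chain, read 63.3 and 58.0 intensity units on the o-HA arrays, 63.3 and 50.7 on the n-HA arrays, and 51.5 and 50.7 on the untreated arrays. Its lowest detection p-value was 0.323, so both untreated arrays and all 4 hyaluronan arrays were at background. Pdgfb, the B chain, was read by a pair of probes. The brighter of them (ILMN_2618714) gave 63.8 and 62.9 on the o-HA arrays, 62.8 and 63.7 on the n-HA arrays, and 66.1 and 68.6 on the untreated arrays. The reading of 68.6 carried the detection p-value of 0.0902, the lowest among the undetected probes, and the other Pdgfb probe read 54.0 to 64.7.

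The PDGF receptors were at background as well. Pdgfra read 61.5 and 53.5 on the o-HA arrays, 55.3 and 65.7 on the n-HA arrays, and 57.5 and 50.1 on the untreated arrays. Pdgfrb read 62.5 and 66.2 on the o-HA arrays, 60.4 and 54.9 on the n-HA arrays, and 64.5 and 60.8 on the untreated arrays. The higher n-HA reading of Pdgfrb (60.4) and the lower untreated one (60.8) differed by less than their bead standard errors (3.195 and 3.605). The groups overlapped for Pdgfra. All readings of both receptors were at background, and the lowest detection p-values were 0.147 for Pdgfra and 0.201 for Pdgfrb. Across the family, 7 PDGF genes were on the array and 6 of them were detected on 0 arrays. The exception was the ligand Pdgfd, detected on 1 array, which left 0 PDGF genes to test.

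Of the TGF-beta genes, Tgfb2 and Tgfbr2 were not detected. Tgfb2, a ligand closely tied to heart valve development, read 69.2 and 60.6 on the o-HA arrays, 62.1 and 51.5 on the n-HA arrays, and 59.9 and 60.3 on the untreated arrays. The o-HA replicate 1 reading was the highest of all 78, with a detection p-value of 0.0965, and o-HA replicate 2 was close to the untreated arrays. The type II receptor Tgfbr2 read 54.9 to 63.9 with 1 probe and 53.1 to 65.1 with the other. The type I receptor Tgfbr1, with 4 probes on the array, was also detected on 0 arrays. Fgfr1 read 51.5 to 60.2 with 1 probe and 56.8 to 66.3 with the other, the upper end on the n-HA arrays (66.2 and 66.3), and its lowest detection p-value was 0.133. For each of the 13 undetected probes the SD over the 6 arrays (2.25 to 6.13 intensity units) was less than 2 times the mean standard error between the beads of 1 array (2.92 to 3.97). None of them entered the test, which needed detection on at least 2 arrays.

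Tgfb1, Tgfbr3 and Vegfa were detected on all 6 arrays, each with 1 probe. For Tgfbr3 a second probe read 52.3 to 65.9 and was detected on 0 arrays although both are annotated to the same transcript record. Vegfa had 3 probes, of which ILMN_3121255 was detected, and ILMN_3045723, annotated to the same transcript record, read 54.8 to 64.3. The remaining Vegfa probe read 49.2 to 60.8. The results that follow therefore rest on 1 probe per gene, with no second probe to check them.

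For 6 of the 10 genes a promoter sequence was matched by symbol in RefSeq (GRCm38.p6), covering 250 bases before to 50 bases after the start, and Pdgfb, Pdgfrb, Tgfbr3 and Fgfr1 were not matched. The windows of Tgfb1 and Vegfa are shown because these are the matched genes whose transcript was detected. Of 2 Vegfa windows in the table, the one at the annotated start of the gene is given. Tgfb1 lies at chr7:25686752-25687051 on the plus strand and Vegfa at chr17:46032328-46032627 on the minus strand. They are written 5′ to 3′ with GC boxes (GGGCGG, either strand) in capitals.
Tgfb1: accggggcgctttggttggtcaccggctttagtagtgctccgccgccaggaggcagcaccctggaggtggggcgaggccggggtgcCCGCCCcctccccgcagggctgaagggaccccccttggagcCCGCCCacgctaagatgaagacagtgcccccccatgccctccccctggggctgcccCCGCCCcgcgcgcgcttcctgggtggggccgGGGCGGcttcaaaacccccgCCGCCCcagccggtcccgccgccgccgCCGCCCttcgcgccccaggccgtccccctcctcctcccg
Vegfa: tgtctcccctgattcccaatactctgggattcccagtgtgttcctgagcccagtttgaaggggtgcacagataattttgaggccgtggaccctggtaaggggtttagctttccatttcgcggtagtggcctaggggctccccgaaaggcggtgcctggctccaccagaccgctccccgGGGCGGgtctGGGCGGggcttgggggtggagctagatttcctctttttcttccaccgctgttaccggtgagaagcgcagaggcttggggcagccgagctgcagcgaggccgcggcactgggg
The Tgfb1 window held 6 GC boxes at 77.0% GC and this Vegfa window held 2 at 62.0% GC. At least 1 GC box was present in 35.7% of the 32851 promoters of the same length, whose median GC content was 52.7%. Neither window held TATAAA (in 13.6% of promoters) or ACGTG, the core of the hypoxia response element (in 19.6%), on either strand. These matches describe the letters only.

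Tgfb1 encodes the TGF-beta isoform best known for driving fibrosis. Before normalization its probe read 143.6 and 163 intensity units on the o-HA arrays, 77.1 and 106.8 on the n-HA arrays, and 212.2 and 198.5 on the untreated arrays. Both n-HA readings were the lowest and both untreated readings the highest. After background correction and normalization the log2 values were 6.48 and 6.59 in o-HA cells, 5.15 and 6.78 in n-HA cells, and 6.87 and 7.27 in untreated cells. On that scale n-HA replicate 2 lay above both o-HA arrays, and the n-HA replicates were further apart than any values of the other groups. In the authors' own normalized intensities the same probe stood at 77.7 and 85 in o-HA cells, 19.9 and 100.3 in n-HA cells, and 104.9 and 146.9 in untreated cells.

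Tgfbr3, the betaglycan co-receptor, read 153.4 and 200.5 on the o-HA arrays, 80.7 and 98.8 on the n-HA arrays, and 268.7 and 199.1 on the untreated arrays, from 18 to 34 beads per array. Its log2 values after normalization were 6.62 and 6.99 in o-HA cells, 5.39 and 6.57 in n-HA cells, and 7.29 and 7.28 in untreated cells. Both n-HA values lay below both o-HA values, as for 27% of all tested probes. Both o-HA values lay below both untreated values, as for 22%. The share of probes with the whole order was not counted.

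Vegfa read 118.7 and 131.6 on the o-HA arrays, 91 and 73.1 on the n-HA arrays, and 142 and 110.9 on the untreated arrays. The reading of 73.1, on n-HA replicate 2, was close to background with a detection p-value of 0.0251. After normalization the log2 values were 6.07 and 6.15 in o-HA cells, 5.92 and 5.13 in n-HA cells, and 6.10 and 6.05 in untreated cells. Here n-HA replicate 2 was the low array, whereas for Tgfb1 and Tgfbr3 it was n-HA replicate 1.

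**Figure D2:**
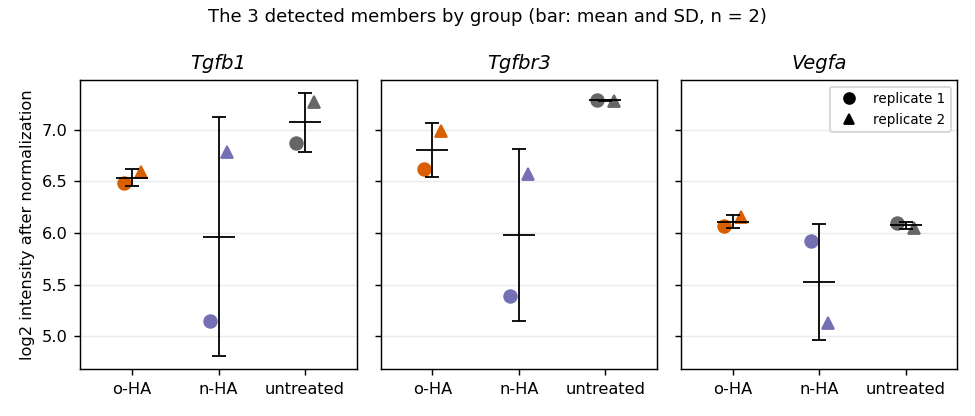
Normalized log2 intensity of the detected probes of Tgfb1, Tgfbr3 and Vegfa in o-HA, n-HA and untreated cells, with each array as a point and the group mean and SD (n = 2) as bars. The n-HA replicates are the widest apart for every gene, with replicate 1 low for Tgfb1 (5.15) and Tgfbr3 (5.39) and replicate 2 low for Vegfa (5.13).

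With o-HA no growth factor gene passed the test. Tgfb1 averaged 6.54 ± 0.08 log2 units in o-HA cells and 7.07 ± 0.29 in untreated cells (SD, n = 2 each), a difference of -0.53 (SE 0.52, limma adjusted p = 1). Tgfbr3 averaged 6.81 ± 0.26 in o-HA cells and 7.29 ± 0.01 in untreated cells, a difference of -0.48 (SE 0.40, adjusted p = 1). Both o-HA values of these genes lay below both untreated values, which held for 22% of all 6194 tested probes (1363). Vegfa averaged 6.11 ± 0.06 in o-HA cells and 6.07 ± 0.03 in untreated cells, and its difference of 0.03 had a 95% interval of -0.70 to 0.77. Over all tested probes limma called 0% in this comparison (0 of 6194, and 78 at an unadjusted p under 0.05). None of the 3 member probes was lower at an unadjusted p under 0.05, against 0.71% of all tested probes.

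With n-HA the 3 genes had lower means than in untreated cells, and none passed the test over all 6 arrays. Tgfb1 averaged 5.97 ± 1.16 log2 units in n-HA cells and 7.07 ± 0.29 in untreated cells, a difference of -1.11 (SE 0.52, adjusted p = 0.261) with a 95% interval of -2.37 to 0.16. Tgfbr3 averaged 5.98 ± 0.84 in n-HA cells and 7.29 ± 0.01 in untreated cells, a difference of -1.31 (SE 0.40, unadjusted p = 0.0173, adjusted p = 0.177) with an interval of -2.29 to -0.32. Vegfa averaged 5.52 ± 0.56 in n-HA cells and 6.07 ± 0.03 in untreated cells, a difference of -0.55 (SE 0.30, adjusted p = 0.312) with an interval of -1.28 to 0.18. The groups did not overlap for any of these 3 probes, as for 30.5% of all tested probes (1887) in the same direction. Tgfbr3 was the member below an unadjusted p of 0.05, and 12.5% of all tested probes (772) were lower at that level. The adjusted test called 0% of the 6194 probes, with 1349 at an unadjusted p under 0.05.

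The n-HA values depended on which array was used, and Tgfbr3 was the gene that passed with either. With n-HA replicate 2 alone, Tgfbr3 was -0.71 from untreated (SE 0.23, limma adjusted p = 0.0419) and Vegfa was -0.99 (SE 0.21, adjusted p = 0.00756), while Tgfb1 was -0.29 (adjusted p = 0.408). With n-HA replicate 1 alone, Tgfb1 was -2.00 (SE 0.23, adjusted p = 4.39e-06) and Tgfbr3 was -1.95 (SE 0.23, adjusted p = 4.44e-06), while Vegfa was -0.16 (adjusted p = 0.551). Among all tested probes 9.77% (576 of 5893) were lower past the threshold with replicate 2 alone and 27.3% (1624 of 5959) with replicate 1 alone. Both fits use the same untreated arrays, and the lone n-HA array is assumed to vary like the other groups. That assumption did not hold over all tested probes. The SD of the difference between replicates was 0.92 for n-HA, against 0.266 for o-HA and 0.267 for untreated. Here and below, p-values and calls from fits with 1 n-HA array therefore do not measure the variation between n-HA arrays. The n-HA arrays were also the dimmer ones: without normalization between arrays, where the median of all tested probes was -0.35, the differences were -1.87 for Tgfb1, -2.11 for Tgfbr3 and -1.16 for Vegfa, with adjusted p = 0.0158, 0.0136 and 0.0433. The part of array brightness in these differences was not tested.

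Marker levels moved on n-HA replicate 1 as well. The atrial myosin light chain Myl4 had log2 values of 11.65 and 11.81 in o-HA cells, 13.27 and 11.73 in n-HA cells, and 11.90 and 11.56 in untreated cells. The cardiac actin Actc1 had 6.68 and 6.91 in o-HA cells, 8.95 and 7.32 in n-HA cells, and 7.02 and 6.88 in untreated cells. Acta2, the smooth muscle actin, had 11.90 and 12.27 in o-HA cells, 13.36 and 12.33 in n-HA cells, and 12.27 and 12.10 in untreated cells. On replicate 1 these 3 genes were at their highest, and Tagln, another smooth muscle gene, was at its lowest (5.03, against 5.88 to 6.58 on the other arrays). The other cardiomyocyte markers did not all rise there. Nppa was at its highest (7.73), Nkx2-5 was at its lowest (5.07), and Myh6 (5.63) lay below both untreated arrays (6.01 and 6.15). The summed cardiomyocyte signal given next mostly follows Myl4, by far the brightest of its list. Over the whole lists, the log2 of the summed cardiomyocyte marker signal ranged over 11.81 to 11.97 in o-HA cells, 11.91 to 13.39 in n-HA cells and 11.75 to 12.06 in untreated cells. The smooth muscle list ranged over 11.96 to 12.31 in o-HA cells, 12.38 to 13.38 in n-HA cells and 12.16 to 12.32 in untreated cells, with 4 of its 6 genes detected on 0 arrays. That sum mostly follows Acta2, by far the brightest of its list. The fibroblast list, with 6 of 7 genes detected on 0 arrays, stayed between 7.18 and 7.33 in all groups. Probes at background sum to about the same value on any array, so that range does not show an unchanged fibroblast signal. The part of the marker shifts in the n-HA differences of Tgfb1, Tgfbr3 and Tsc22d1 was not tested.

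For o-HA set against n-HA, none of the 3 genes passed over all 6 arrays. The difference was 0.57 (SE 0.52, adjusted p = 0.552) for Tgfb1, 0.83 (SE 0.40, adjusted p = 0.371) for Tgfbr3 and 0.58 (SE 0.30, adjusted p = 0.381) for Vegfa. The 95% intervals ran from -0.69 to 1.84, from -0.16 to 1.81 and from -0.15 to 1.32, so neither equal levels nor a gap of over 1 log2 unit lay outside them. Both o-HA values lay above both n-HA values for Tgfbr3 and Vegfa, as for 27% of all tested probes (1675), and the groups overlapped for Tgfb1. The test called 0% of the 6194 probes in this comparison (876 at an unadjusted p under 0.05), and 8.78% (544) were higher in o-HA cells at that unadjusted level, none of them a member.

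The array used again decided the call. With n-HA replicate 2 alone, the o-HA minus n-HA difference was 1.02 for Vegfa (limma adjusted p = 0.0111), 0.23 for Tgfbr3 (adjusted p = 0.541) and -0.25 for Tgfb1 (adjusted p = 0.53), so the sign for Tgfb1 turned. With n-HA replicate 1 alone it was 1.45 for Tgfb1 (adjusted p = 0.000107), 1.46 for Tgfbr3 (adjusted p = 8.38e-05) and 0.20 for Vegfa (adjusted p = 0.46). Among all tested probes 5.67% were higher in o-HA cells past the threshold with replicate 2 alone and 25.9% with replicate 1 alone. Leaving out an n-HA array also narrowed the spread used for o-HA against untreated. There 0.238% of all tested probes were lower past the threshold without replicate 1 and 0.235% without replicate 2 (14 probes each), with Tgfb1 at -0.53 (adjusted p = 0.222) and Tgfbr3 at -0.48 (adjusted p = 0.253) without replicate 1.

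**Figure D3:**
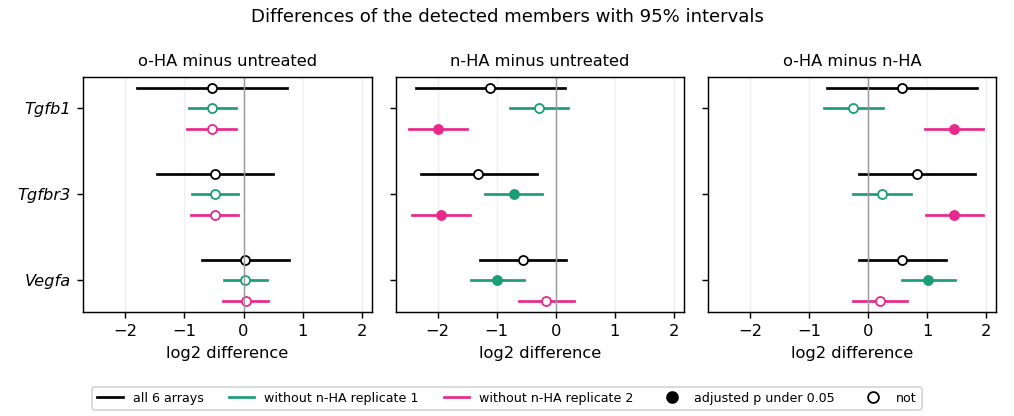
Log2 difference with its 95% interval for Tgfb1, Tgfbr3 and Vegfa in the 3 comparisons, from all 6 arrays and without either n-HA array. Filled points have a limma adjusted p under 0.05. In fits with 1 n-HA array, intervals and fills do not measure the variation between n-HA arrays. In n-HA minus untreated Tgfbr3 is filled without replicate 1 (-0.71) and without replicate 2 (-1.95), while Tgfb1 and Vegfa are each filled in 1 of these fits and no gene is filled with all 6 arrays.

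The wider pathways were read from a list of 120 ligands, receptors, inhibitors, transducers and targets, among which the 10 genes are counted. Of these 113 were on the array, 67 (59.3%) had no detected probe and 35 were tested, 32 of them outside the 10 genes. None passed the test in any of the 3 comparisons, where limma called 0 of all 6194 probes too. Set against untreated cells, 14 of the 32 had a higher mean and 18 a lower mean with o-HA (median log2 difference -0.02), and 17 had a higher and 15 a lower mean with n-HA (median 0.22). Over all 4885 tested genes the medians were 0 and 0.02. The n-HA median turned to -0.17 with n-HA replicate 2 alone (12 higher and 16 lower of 28 tested), against -0.07 over all tested probes. The probes used for Nrp1, Ccnd1, Vegfb and Nog left the tested set there. Over all 6 arrays their n-HA differences from untreated were 1.20, 0.40, 0.47 and 0.52. The count of 17 higher and the turn of the median thus also depend on the gene set. Neither is a test of direction. Without normalization the median was -0.25, against -0.35 over all tested probes.

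TGF-beta genes made up 21 of the 35. Their 5 tested ligands were Tgfb1 (detected on 6 arrays), Inha and Inhba (5 each), Bmp4 (4) and Tgfb3 (3). The n-HA values of Bmp4 (4.37 and 4.68) and Tgfb3 (4.53 and 4.52) lay near the highest log2 value of the undetected member probes (4.63). Such dim probes can enter the test through the groups where they are brighter, so the next count is not a test of direction. All 5 had lower means in n-HA than in untreated cells (median -0.62), against 49.0% lower over all 4885 tested genes. That count was 4 of 5 with n-HA replicate 1 alone, where Inhba, the activin subunit, was 0.49 higher, and 4 of 5 without untreated replicate 1. Inha, the inhibin alpha subunit that opposes activin, had log2 values of 5.55 and 5.58 in o-HA cells, 4.60 and 5.47 in n-HA cells, and 6.16 and 6.41 in untreated cells. Its differences from untreated were -0.72 with o-HA (SE 0.33, unadjusted p = 0.0672, limma adjusted p = 1) and -1.25 with n-HA (SE 0.33, adjusted p = 0.176), and neither hyaluronan group overlapped the untreated one, as for 22% of all tested probes with o-HA and 30.5% with n-HA in that direction. With a single n-HA array Inha was -0.84 from untreated with replicate 2 (adjusted p = 0.0188) and -1.79 with replicate 1 (adjusted p = 7.1e-06). Bmp4, a bone morphogenetic protein, was -0.62 with n-HA (SE 0.23, limma adjusted p = 0.203), -0.82 with replicate 1 alone (adjusted p = 0.00568) and -0.49 with replicate 2 alone, which did not pass.

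Among the TGF-beta family receptors the activin and BMP receptors Acvr1, Acvr2b and Bmpr1b were detected on all 6 arrays. Acvr1, a type I receptor, had log2 values of 5.14 and 4.96 in o-HA cells, 5.88 and 5.97 in n-HA cells, and 5.01 and 5.47 in untreated cells. Both n-HA arrays were the highest, and 23.8% of all tested probes (1475) were likewise higher in n-HA than in untreated cells without overlap. The n-HA difference from untreated was 0.69 over all arrays (SE 0.24, adjusted p = 0.196), 0.77 with n-HA replicate 2 alone (adjusted p = 0.0396) and 0.68 with replicate 1 alone (adjusted p = 0.0274). In those fits 7.36% (434 of 5893) and 26.8% (1597 of 5959) of all tested probes were higher past the threshold. Acvr2b, a type II activin receptor, had 8.09 and 7.99 in o-HA cells, 8.74 and 8.26 in n-HA cells, and 7.81 and 7.82 in untreated cells, a difference of 0.69 with n-HA (adjusted p = 0.194) and 0.23 with o-HA (adjusted p = 1). The n-HA difference of Acvr2b was 0.92 with replicate 1 alone (adjusted p = 0.00186) and 0.45 with replicate 2 alone, which did not pass.

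In o-HA minus n-HA, Acvr1 was -0.88 (limma adjusted p = 0.325), -0.97 with n-HA replicate 2 alone (adjusted p = 0.0237) and -0.89 with replicate 1 alone (adjusted p = 0.0069). Bmpr1b was -0.75 (adjusted p = 0.339, and -0.13 with its second tested probe), passing with replicate 2 alone (-0.95, adjusted p = 0.0322) and not with replicate 1 alone (-0.59). Acvr2b was -0.46 (adjusted p = 0.386), passing with replicate 1 alone (-0.69, adjusted p = 0.0136) and not with replicate 2 alone (-0.22). Of all tested probes 3.51% were lower in o-HA than in n-HA cells past the threshold with replicate 2 alone and 25.2% with replicate 1 alone. In o-HA minus untreated, Bmpr1b was -0.37, and -0.03 with its second tested probe. The matrix-binding protein Ltbp4, which holds latent TGF-beta, was -0.44 there, and Smad3, a receptor-activated transducer, was 0.29 (adjusted p = 1 for each of these genes).

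Tsc22d1, a gene first found as induced by TGF-beta, had the largest difference from untreated cells among the 35 tested genes with n-HA. Its log2 values were 8.52 and 8.02 in o-HA cells, 5.46 and 7.71 in n-HA cells, and 8.86 and 8.93 in untreated cells. The n-HA difference from untreated was -2.31 (SE 0.69, limma adjusted p = 0.176), -1.18 with replicate 2 alone (adjusted p = 0.00597) and -3.49 with replicate 1 alone (adjusted p = 7.03e-08), and o-HA minus n-HA was 1.69 (adjusted p = 0.35), 2.86 with replicate 1 alone (adjusted p = 4.43e-07) and 0.56 with replicate 2 alone, which did not pass. Among the 32 genes outside the 10, those higher in o-HA than in n-HA cells with the next smallest p-values were Ltbp3, another latent TGF-beta binding protein, and Pmepa1, which limits SMAD signalling. Ltbp3, detected on 5 arrays, was 0.58 (limma adjusted p = 0.356), 0.81 with n-HA replicate 2 alone and 0.43 with replicate 1 alone. Pmepa1 was 0.55 (adjusted p = 0.381). It was detected on only 2 arrays, and its n-HA values (4.25 and 4.22) were as low as those of undetected probes.

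Ccn2 (formerly Ctgf), a matrix-associated TGF-beta target, had log2 values of 4.80 and 5.56 in o-HA cells, 6.24 and 5.24 in n-HA cells, and 5.04 and 5.24 in untreated cells. The n-HA replicates spanned more than the gap to untreated, and the difference was 0.60 (SE 0.41, limma adjusted p = 0.406), 1.16 with replicate 1 alone (adjusted p = 0.00298) and 0.10 with replicate 2 alone, which did not pass. The insulin-like growth factors Igf1 and Igf2 were read as well. Igf1 had 6.01 and 5.89 in o-HA cells, 5.44 and 6.04 in n-HA cells, and 5.99 and 5.92 in untreated cells, and Igf2 had 4.80 and 4.98 in o-HA cells, 5.88 and 4.74 in n-HA cells, and 4.98 and 4.82 in untreated cells. For both genes n-HA replicate 1 was the array that stood apart, and alone it gave -0.54 for Igf1 (adjusted p = 0.0451) and 1.05 for Igf2 (adjusted p = 0.000916) against untreated cells.

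In the FGF family 38 genes were on the array and 7 were tested, with 0 of 12 ligands and 0 of 7 feedback inhibitors among them. In n-HA cells 6 of the 7 were higher than in untreated cells (median 0.36), against 2489 of all 4885 tested genes. Dim probes can enter the test through the group where they are brighter, so this count is not a test of direction. The count was 3 of 6 with replicate 2 alone, where Ccnd1 left the tested set. Without normalization it was 3 of 7 (median -0.16), against a median of -0.35 over all tested probes. Among the 6, Ptpn11 was 0.09 higher, while its second tested probe was at -0.74. Ccnd1, Shc1 and Ptpn11 were detected on 2, 3 and 4 arrays, and each was brightest on n-HA replicate 1 (5.59, 5.64 and 5.89). Gab1, a docking protein in receptor tyrosine kinase signalling, had log2 values of 8.21 and 7.93 in o-HA cells, 8.66 and 8.01 in n-HA cells, and 7.75 and 7.41 in untreated cells. Both hyaluronan groups lay above the untreated one, as for 21.7% of all tested probes with o-HA and 23.8% with n-HA. The differences were 0.49 with o-HA (SE 0.30, limma adjusted p = 1) and 0.76 with n-HA (SE 0.30, adjusted p = 0.217), and the n-HA one was 1.09 with replicate 1 alone (adjusted p = 0.00106) and 0.43 with replicate 2 alone, which did not pass. In the VEGF family 5 of 10 genes were tested. The co-receptor Nrp1 had 2 tested probes, and the brighter was detected on 2 arrays. That probe had 4.44 and 5.32 in o-HA cells, 7.20 and 4.39 in n-HA cells, and 4.67 and 4.53 in untreated cells. Its n-HA mean thus rested on replicate 1. The n-HA difference from untreated was 1.20 with that probe and 0.67 with the other.

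**Figure D4:**
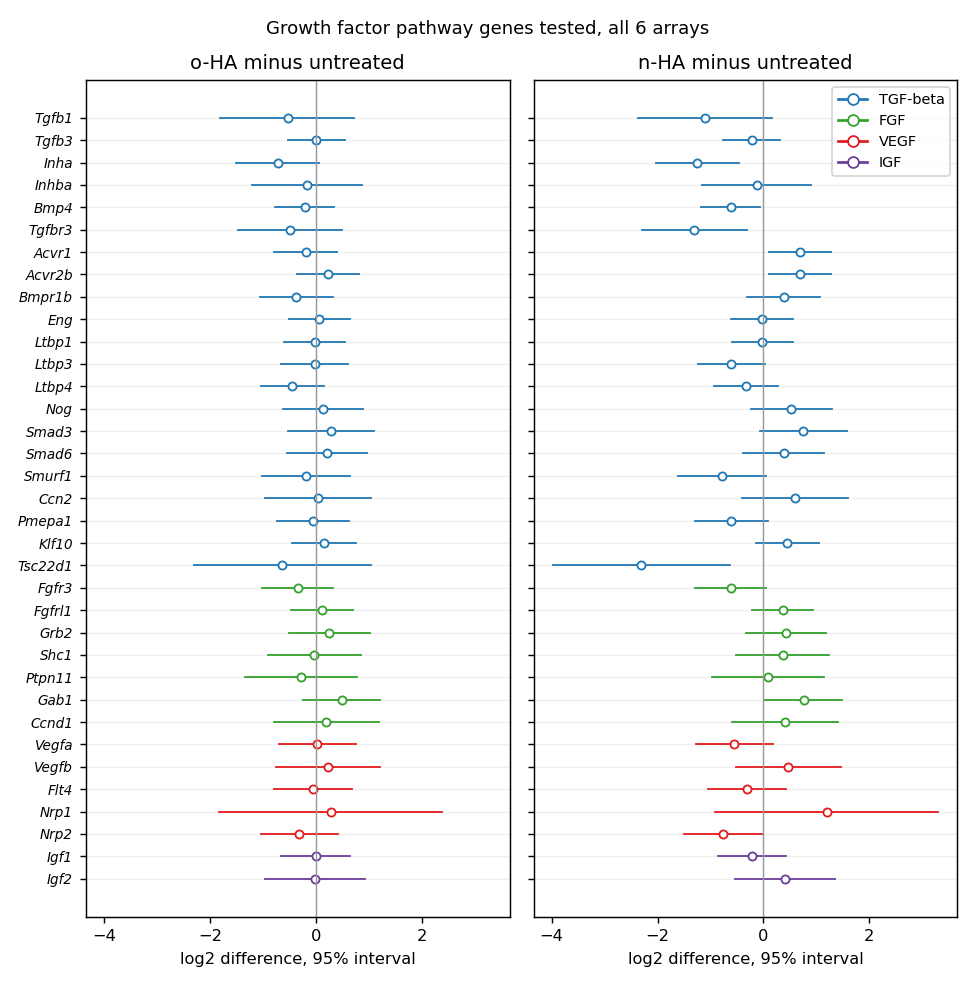
Log2 difference from untreated cells with its 95% interval for the 35 tested pathway genes, with o-HA in the left panel and n-HA in the right and colours marking the families. No gene passed the adjusted threshold in either panel, and Tsc22d1 lies farthest to the left with n-HA (-2.31).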

How the data were processed

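Total RNA of 6 samples of the HL-1 line was hybridized to Illumina MouseRef-8 beadchips after TotalPrep labelling. The authors deposited bead intensity per probe without normalization from BeadStudio 3.3 (submitters' processing notes), with a detection p-value, a bead standard error and the number of beads (median 41 per probe). A second deposited table holds the authors' cubic-spline normalized intensity, background subtracted by an unstated value, used as an alternative. The authors' BeadStudio test was not rerun. Intensities were background-corrected in limma 3.58.1 (R 4.3.3) with the neqc steps, negative controls being inferred from the detection p-values, with an offset of 16, quantile normalization and log2. Probes detected on at least 2 of 6 arrays were tested (6194 probes, 4885 genes) with a mean per group over all 3 groups by lmFit and eBayes, where the prior added 3.145 degrees of freedom to the 3 left by the arrays. Two-sided p-values were Benjamini-Hochberg adjusted over all tested probes, with a threshold of 0.05. Of the 25697 probes 23978 carried 1 gene symbol and 1719 none. Symbols came from the platform annotation, updated through its gene IDs. For other pathway genes the tested probe of highest mean was used.

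All probes of the 10 genes are reported. Of the pathway genes, the 3 of smallest p-value in each direction were named per comparison, since none passed, as were some detected on all 6 arrays, those named in the study's text (Ccn2, Igf1, Igf2) and the first 3 markers of each cell type list. Inhba, Nrp1, Tgfb3, Pdgfd, Tgfbr1, Ryr2, Tek, Tagln and Cd3e were named after their values were seen. Members and lists were chosen with earlier results of these data known. P-values measure the spread between samples, which may be technical, and having 2 arrays per group limits their precision. Scripts were tested on simulated data, and figures were drawn with matplotlib 3.10.9. Alternatives changed the background correction, offset, normalization, filter, weights, the groups in the fit and the replicate block, and left out each array.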

Additional observations from a re-analysis of the deposited data

How the results depend on the processing

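Over 16 settings the n-HA minus untreated difference stayed below 0 for Tgfb1 (-2.00 to -0.29), Tgfbr3 (-2.11 to -0.71) and Vegfa (-1.16 to -0.16). Among the single-gene differences recomputed under an alternative, 120 kept their direction and side of the threshold, 12 passed it only under the alternative and 3 changed sign. The sign changes were Vegfa in o-HA minus untreated, at -0.01 without normalization and -0.01 without o-HA replicate 2 (-0.01 to 0.08 with 1 array left out), and Tgfb1 in o-HA minus n-HA, at -0.25 without n-HA replicate 1 (-0.25 to 1.45 with 1 array left out). Without normalization between arrays 1472 probes passed in n-HA minus untreated, all lower, 3 of them members, and 1193 in o-HA minus n-HA, all higher, 2 of them members. In that setting the medians of all tested probes were -0.35 and 0.36, and the part of this shift in the counts was not tested. Without a filter on dim probes 12 passed with n-HA. With array weights 26 passed with o-HA and 8 with n-HA, and with only the 2 groups compared 43 passed with o-HA, none of them members; for array weights the n-HA arrays counted 0.22 each and the others 2.13. Leaving out 1 array gave 0 to 24 probes for o-HA minus untreated, 0 to 3221 for n-HA minus untreated and 0 to 3044 for o-HA minus n-HA, and 0, 0 to 2 and 0 to 2 member probes in the same comparisons. The counts above 0 came with an n-HA array left out: without n-HA replicate 1 they were 24, 1010 and 541, and without n-HA replicate 2 they were 24, 3221 and 3044. The cause was not tested. Correlations of deviations between groups ran from -0.114 to 0.153. They gave no sign that the replicate numbers pair the samples, but cannot show that they do not. With the replicate block 0 probes passed in each comparison, with Tgfbr3 at -1.31 and limma adjusted p = 0.207 for n-HA. Signal over background limits what can be seen of the 13 undetected probes.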
